A study of Rattus norvegicus with 4 samples.

Results

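Complement is a set of secreted proteins that mark cells and debris for removal, and 9 of its genes were followed here in olfactory ensheathing cells, the glia that wrap olfactory axons between nose and brain. The genes were taken by their name on the array, among non-control probes, after removal of an ending for predicted or mapped genes. They are C1qa, C1qb, C1r, C1s, C2, C3, C4a, Masp1 and Serping1, which make up 9 of 35658 gene names and 15 of 41012 probes. All 15 probes passed the filter on dim signals, and each was well above background on all 4 arrays in both channels. The study compared untreated ensheathing cells cultured from the olfactory mucosa with ensheathing cells cultured from the olfactory bulb by the same protocol, both from male Fischer rats. Each of 4 arrays held 1 biological replicate as a pair, with mucosa cells labelled with Cy5 and bulb cells with Cy3. The age of the animals and the purity of the cultures are not given in the sources used here. The dye orientation was the same on all arrays, so the dye and the source of the cells cannot be told apart.

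Complement is started by recognition molecules. C1q, built from the chains of C1qa, C1qb and C1qc, binds antibody, pentraxins or dying cells and carries the proteases C1r and C1s, which cut C4 and then C2. The lectin branch reaches the same step through its own proteases, with MASP-1, a product of the Masp1 gene, acting at its start. The cut C4 and C2 form an enzyme that cleaves C3, the central component, and C3 and C4 attach to surfaces through a reactive thioester. Serping1 encodes the C1 inhibitor, which inactivates C1r, C1s and the lectin-branch proteases. In brain and peripheral tissue C1q is made mainly by macrophages and microglia, whereas C1r, C1s, C3 and C4 are also made by fibroblasts and glia.

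The comparison asks whether complement transcripts differ between ensheathing cells of the 2 sources, and whether C1q moves apart from the genes that glia and mesenchymal cells make. Of the 9 genes, 4 were lower in mucosa cells and 0 were higher by limma with Benjamini-Hochberg adjustment over 31897 gene names. Of all names, 3.38% were lower and 3.23% higher, or 6.62% in either direction. Of all calls 48.9% were thus higher, and 59.6% with median centring in place of loess. The 4 lower genes were C4a, C3, Masp1 and Serping1, and the 5 that did not pass were C1qa, C1qb, C1r, C1s and C2. The median log2 ratio of the 9 genes was -0.45, against 0.012 over all names. Without replicate 1, C4a alone passed. In bulk cultures, fewer cells of a type and less RNA per cell cannot be told apart.

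**Figure D1:**
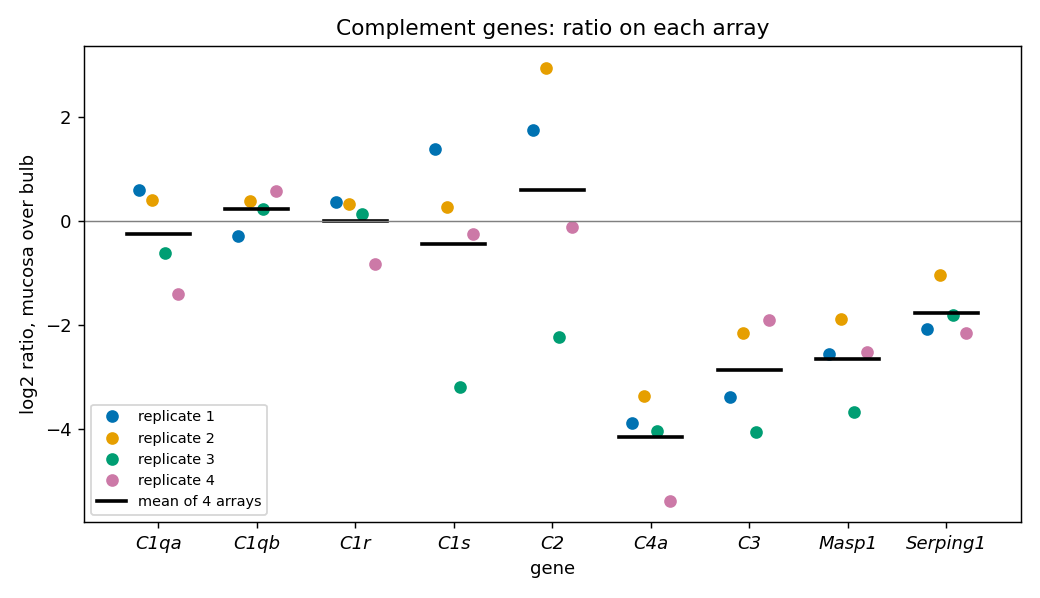
Log2 ratio of mucosa over bulb (vertical axis) of each complement gene (horizontal axis) on each of 4 arrays (points) with the mean (black line). The ratios of C4a, C3, Masp1 and Serping1 lie below 0 on all 4 arrays, from -1.03 to -5.37, and those of the other 5 genes lie on both sides of 0.

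Ratios come from probes of 60 bases, whose sequences set what each value can tell apart. Those of the 4 lower genes are shown 5′ to 3′ in lower case, with no part marked, as the deposited scanner files give them.
C4a: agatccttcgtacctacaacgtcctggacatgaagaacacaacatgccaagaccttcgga
C3: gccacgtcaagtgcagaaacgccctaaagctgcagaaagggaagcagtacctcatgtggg
Masp1: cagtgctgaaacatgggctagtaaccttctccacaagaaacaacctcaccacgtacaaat
Masp1, MASP-3 transcript: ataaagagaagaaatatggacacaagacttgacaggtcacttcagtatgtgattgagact
Serping1: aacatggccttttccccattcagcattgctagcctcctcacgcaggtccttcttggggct
Serping1, second probe: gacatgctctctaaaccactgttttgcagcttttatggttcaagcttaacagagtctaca
The files place the C4a probe at chr20:4116778-4117756 of the rn4 build, plus strand, a span of 979 bases that exceeds the probe. Its accessions belong to C4a and to the near-identical gene C4b in RefSeq, so the value is one of both genes together. The C3 probe lies at chrUn:64513437-64513496, on sequence not placed on a chromosome, minus strand.

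C4a, which encodes the component that C1s and the lectin-branch proteases cut first, had the lowest ratio of the 9 genes. Its normalised log2 intensity was 9.37, 9.66, 9.72 and 8.16 in mucosa cells of replicates 1 to 4, against 13.24, 13.01, 13.75 and 13.52 in bulb cells. The groups did not overlap, and the SD of the levels was 0.73 in mucosa cells and 0.33 in bulb cells (n = 4 each). This gave a log2 ratio of -4.15 ± 0.86 (SD, n = 4), or 17.8-fold lower in mucosa cells (limma adjusted p = 0.00322), the 19th lowest of 31897 gene names.

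C3, the component on which all branches converge, was 7.31-fold lower in mucosa cells. It had 7.81, 7.61, 7.81 and 10.68 in mucosa cells of replicates 1 to 4, against 11.18, 9.75, 11.87 and 12.59 in bulb cells. Mucosa cells of replicate 4 stood well above the other mucosa samples and above bulb cells of replicate 2, so the groups overlapped, but within each array the mucosa value was the lower one. Its log2 ratio was -2.87 ± 1.02 (SD, n = 4; limma adjusted p = 0.0134). The call was lost without replicate 1 (adjusted p = 0.0734) and, by a small margin, with the channels unpaired (adjusted p = 0.0512).

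Masp1 was lower in mucosa cells at all of its 4 probes. The gene gives rise by splicing to MASP-1, a protease that starts the lectin branch, and to MASP-3, which in mice and humans activates the factor D proenzyme of the alternative branch. The probe that stands for the gene, at chr11:79575112-79575171, had 9.04, 9.06, 8.73 and 9.53 in mucosa cells, against 11.59, 10.94, 12.40 and 12.04 in bulb cells. The groups did not overlap at this probe. Here the log2 ratio was -2.65 ± 0.74 (SD, n = 4; limma adjusted p = 0.00857), or 6.29-fold lower, and the call was lost without replicate 1 (adjusted p = 0.0549).

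The other Masp1 probes lie elsewhere along the gene on the plus strand of chromosome 11. They differ in brightness as well as in position, so their values are not read as a trend along the gene. At chr11:79556315-79557485, the position nearest the start of the gene, the log2 ratio was -3.52 ± 1.46 (SD, n = 4). The probe of the MASP-3 transcript, at chr11:79582592-79582651, had -3.04 ± 0.52, with 7.12, 6.91, 7.20 and 8.15 in mucosa cells against 9.99, 10.34, 10.67 and 10.52 in bulb cells. The farthest probe, at chr11:79602404-79602463, had the smallest difference, -1.19 ± 0.42, with levels that overlapped. It was also dim, with mean log2 intensities of 7.11 in mucosa and 8.30 in bulb cells. In a fit over all probes their limma adjusted p were 0.0180, 0.00347 and 0.0399.

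Serping1, the inhibitor of the C1 and lectin-branch proteases, was 3.40-fold lower in mucosa cells. It had 8.40, 9.02, 8.86 and 8.79 in mucosa cells, against 10.47, 10.05, 10.66 and 10.95 in bulb cells, and the groups did not overlap. Its log2 ratio was -1.76 ± 0.51 (SD, n = 4; limma adjusted p = 0.0162). The call was lost without replicate 1, 3 or 4 (adjusted p = 0.0760, 0.0523 and 0.0581) and with a trended robust variance (0.0527). The second Serping1 probe, at chr3:67968828-67968887 where the other spans chr3:67975119-67976458, had -0.75 ± 0.48 and did not pass (adjusted p over all probes = 0.144). It was the dimmer probe, with mean log2 intensities of 7.31 in mucosa and 8.06 in bulb cells, against 8.77 and 10.53 at the other.

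**Figure D2:**
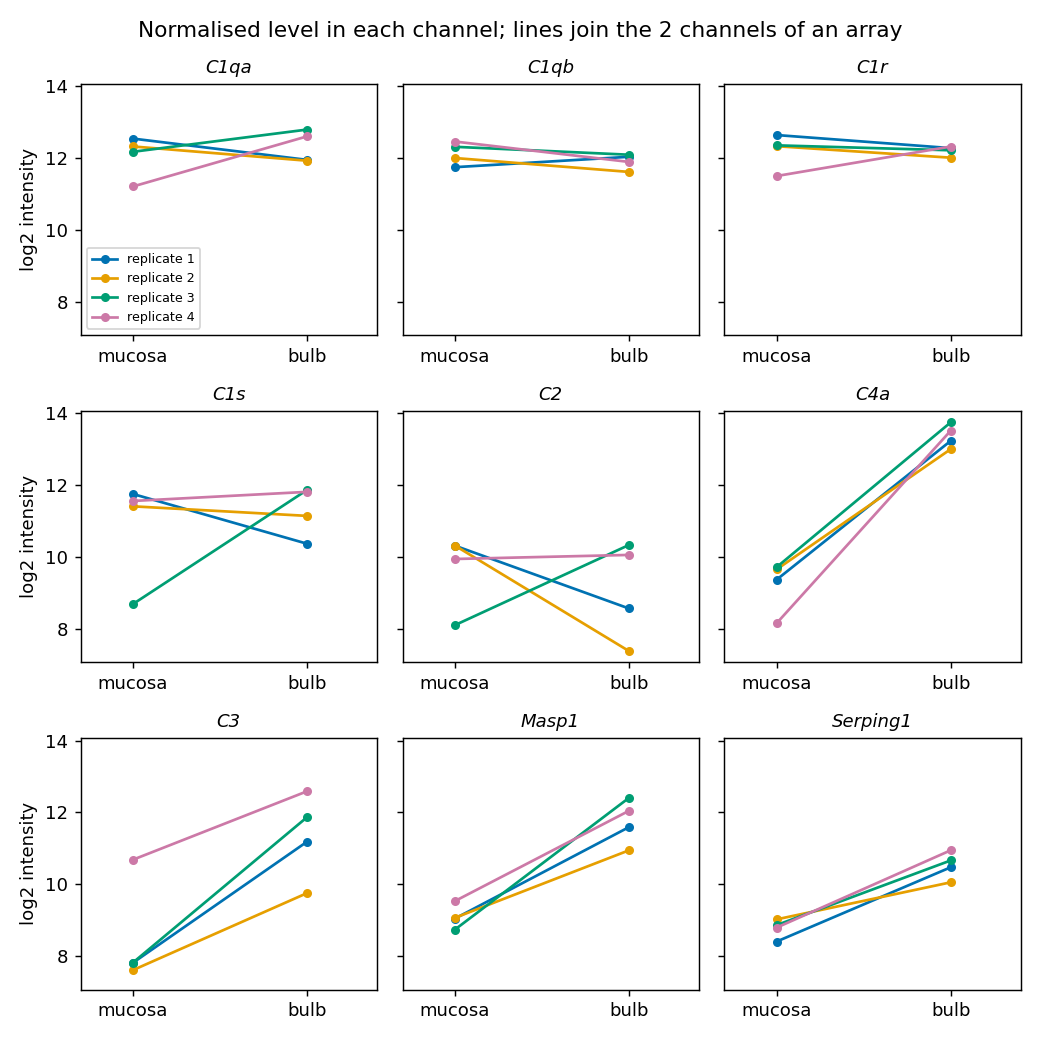
Normalised log2 intensity (vertical axis) of each complement gene in mucosa cells (left) and bulb cells (right), with 1 line for each of 4 arrays. The lines of C4a, C3, Masp1 and Serping1 run up to bulb on all arrays, while those of the other 5 genes run up on some arrays and down on others, with log2 ratios from -0.82 to 0.36 for C1r and from -0.29 to 0.57 for C1qb.

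The C1q chains did not pass the test. C1qa had 12.54, 12.32, 12.17 and 11.21 in mucosa cells, against 11.95, 11.93, 12.79 and 12.60 in bulb cells. Mucosa cells were higher in replicates 1 and 2 and lower in replicates 3 and 4. The mean log2 ratio was -0.26 ± 0.93 (SD, n = 4; limma adjusted p = 0.708), with a 95% confidence interval from -1.15 to 0.64.

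C1qb had 11.75, 12.00, 12.31 and 12.46 in mucosa cells, against 12.04, 11.61, 12.09 and 11.89 in bulb cells. The log2 ratio was 0.22 ± 0.37 (SD, n = 4; limma adjusted p = 0.591), with an interval from -0.33 to 0.77. The direction of C1qa and C1qb differed on 3 of 4 arrays, although their chains assemble into the same protein. A second C1qa probe, at chr5:155662767-155662826 where the one that stands for the gene lies at chr5:155662578-155662637, had -0.70 ± 1.29. It was positive in replicate 1 and negative in the other replicates.

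C1r and C1s, the proteases carried by C1q, did not pass either. C1r had 12.64, 12.33, 12.35 and 11.50 in mucosa cells, against 12.28, 12.01, 12.22 and 12.32 in bulb cells. Its mean log2 ratio was 0.00014 ± 0.56 (SD, n = 4), with an interval from -0.65 to 0.65, and it was below 0 in replicate 4 alone.

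C1s had 11.76, 11.41, 8.69 and 11.56 in mucosa cells, against 10.37, 11.15, 11.87 and 11.82 in bulb cells. The mucosa value of replicate 3 lay far under the other mucosa values. The log2 ratio was -0.45 ± 1.95 (SD, n = 4; limma adjusted p = 0.729), and 0.47 without replicate 3. At the second C1s probe the mucosa value of replicate 3 was 10.49, inside the range of the other replicates, and the mean ratio was 0.20 ± 1.06. The probes thus disagree in sign, and their sequences are shown, the one that stands for the gene first.
C1s, chr4:160737164-160737223: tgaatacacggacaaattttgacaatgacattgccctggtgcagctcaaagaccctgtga
C1s, chr4:160736725-160736784: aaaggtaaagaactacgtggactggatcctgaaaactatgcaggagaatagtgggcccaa

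C2, the protease that joins cut C4, varied most among the 9 genes. It had 10.32, 10.32, 8.10 and 9.95 in mucosa cells, against 8.57, 7.38, 10.34 and 10.06 in bulb cells. The log2 ratio was 1.75 and 2.94 in replicates 1 and 2 and -2.23 and -0.11 in replicates 3 and 4. Its mean was 0.59 ± 2.26 (SD, n = 4; limma adjusted p = 0.691), with an interval from -1.34 to 2.51, so a difference of several fold in either direction could not be told from none at 4 arrays.

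**Figure D3:**
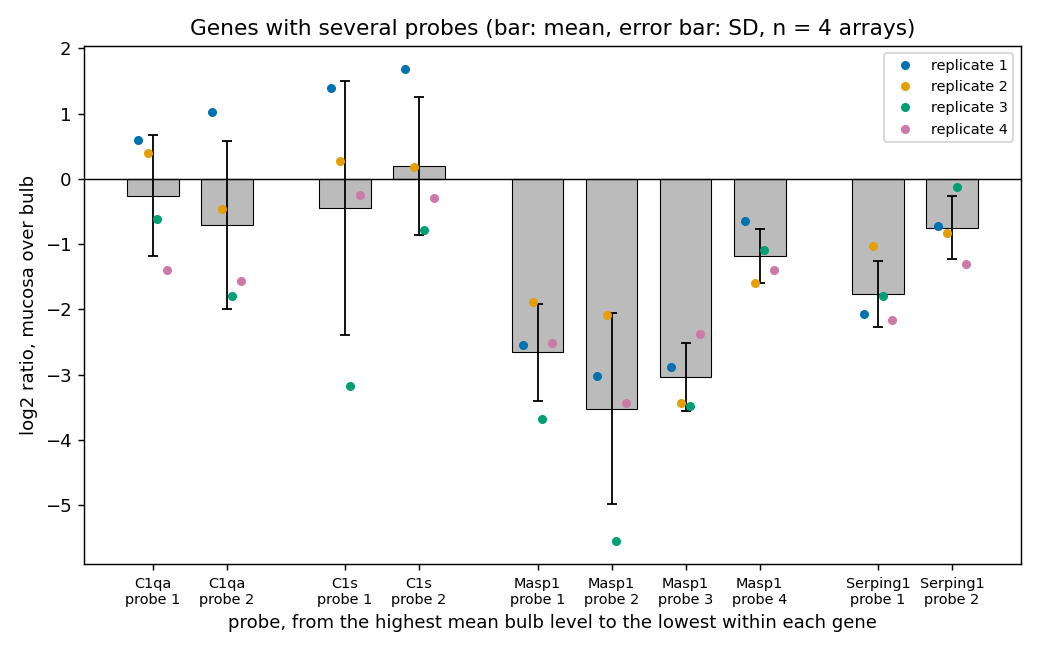
Log2 ratio of mucosa over bulb (vertical axis) at each probe of the 4 complement genes with several probes (horizontal axis), as the mean (bar), SD (error bar) and value on each of 4 arrays (points). All 4 Masp1 probes lie below 0 on every array, with means from -1.19 to -3.52, the means of the C1s probes differ in sign, and the second Serping1 probe has the smaller difference.

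C1q was set against C1r, C1s, C3 and C4a as the difference of their mean log2 ratios on each array, given as a description with no test. The mean of C1qa and C1qb was 0.15, 0.39, -0.20 and -0.41 in replicates 1 to 4. The mean of C1r, C1s, C3 and C4a was -1.37, -1.23, -2.78 and -2.09. The difference was therefore 1.52, 1.62, 2.58 and 1.67, or 1.85 ± 0.49 (SD, n = 4), above 0 on all arrays.

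On average the difference was larger against C3 and C4a than against C1r and C1s. Against the mean of C3 and C4a alone, C1q was higher by 3.77, 3.14, 3.84 and 3.22. Against the mean of C1r and C1s, it was -0.72, 0.098, 1.32 and 0.12, or 0.20 ± 0.84. C1r and C1s in turn lay above C3 and C4a by 3.29 ± 0.84 on this scale, with values of 4.50, 3.04, 2.52 and 3.10. The 4 genes named beside C1q thus had unlike ratios. In replicate 3, C1s had -3.18 and lay nearer to the -4.04 of C3 and C4a than to the -0.20 of C1qa and C1qb. The second C1s probe, at -0.78, did not share that value.

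Markers of other cells moved as follows, and their part in the complement values was not tested. Of 24 myeloid markers, 21 were tested, and 2 were higher and 1 lower in mucosa cells. Cd74, the invariant chain of class II molecules, was higher at 3.10 ± 0.82 (SD, n = 4; limma adjusted p = 0.00656). Lyz, the lysozyme gene, had 2.87 ± 1.73 (adjusted p = 0.0492), and that call was lost without replicate 1, 2 or 4 (adjusted p up to 0.155). Cd163, a scavenger receptor of macrophages, was lower at -1.58 ± 0.44 (adjusted p = 0.0182), and that call was lost without replicate 1, 2 or 3 (adjusted p up to 0.0842), with a trended robust variance (0.0609) and with the mean over its probes (-0.71, adjusted p = 0.117).

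Defining myeloid markers were measured in both channels. Cd68, Aif1, Csf1r and Tyrobp were well above background on all 4 arrays in mucosa and in bulb cells, and Itgam was so on 3 mucosa arrays and all 4 bulb arrays. None of these 5 passed, with log2 ratios of -0.81 ± 2.51, -0.16 ± 0.51, -1.02 ± 1.37, 0.64 ± 0.63 and -0.99 ± 2.23 (SD, n = 4). No gene name was matched to Ptprc. The summed intensity of the 21 markers ranged from 64309 to 117026 in mucosa cells and from 39134 to 84887 in bulb cells. Within replicate 3 the mucosa sum was the lower one, and within the other replicates it was the higher one. The sum is linear, so bright genes weigh most, such as Lyz with mean log2 intensities of 15.13 in mucosa and 12.26 in bulb cells. The median log2 ratio of the 21 markers was -0.16, and 12 of them were below 0.

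The median of the myeloid markers changed sign between arrays as the C1qa probe that stands for the gene did, but most single markers did not. The median log2 ratio was 0.56, 0.52, -0.84 and -0.61 in replicates 1 to 4, beside 0.59, 0.40, -0.62 and -1.40 for C1qa. Of the 21 markers, 6 were above 0 in replicates 1 and 2 and below 0 in replicates 3 and 4, 4 were above 0 on all arrays, 3 were below 0 on all arrays, and 1 ran opposite to C1qa. The second C1qa probe was above 0 in replicate 1 alone. C1qc, named C1qg on the array and the gene of the remaining C1q chain, had -0.23, -0.29, -3.48 and -1.65, and a second probe of it had a mean of 0.13 ± 0.24. C1qb did not share this order of arrays. With 4 arrays no correlation was computed.

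**Figure D4:**
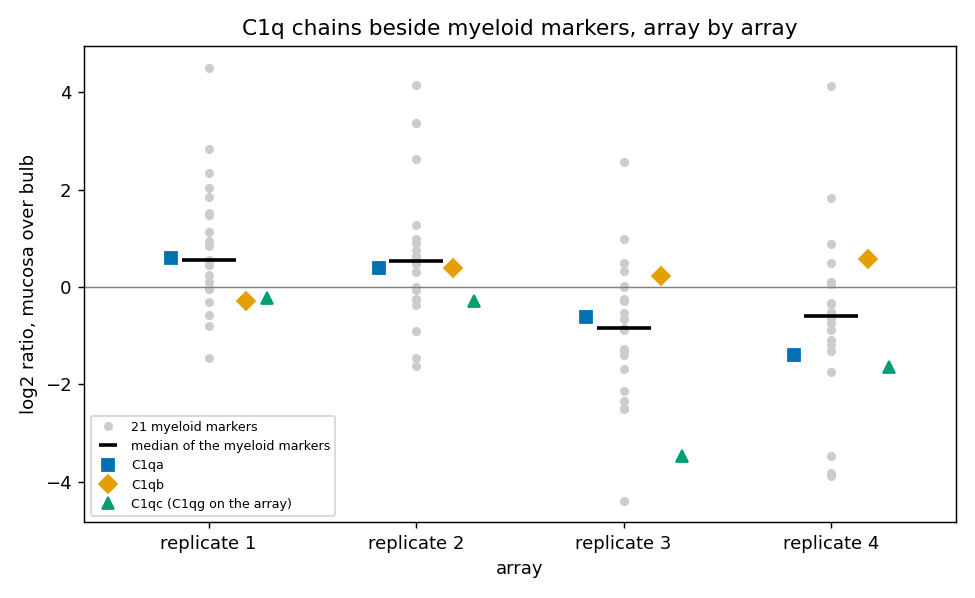
Log2 ratio of mucosa over bulb (vertical axis) on each array (horizontal axis) for the C1q chain genes (coloured) and for 21 myeloid markers (grey, with the median as a black line). C1qa and the marker median lie above 0 in replicates 1 and 2 and below 0 in replicates 3 and 4, while C1qb lies above 0 in replicates 2, 3 and 4.

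Markers of the labelled cell type were present in both channels and most called ones were lower in mucosa cells. Of 18 markers of ensheathing glia, 1 was higher and 8 were lower, with a median of -0.98, and each of the 18 was well above background on all arrays of both channels. Sox10, a transcription factor that specifies peripheral glia, had a log2 ratio of -1.87 ± 0.55 (SD, n = 4; limma adjusted p = 0.0152). Its call was lost without replicate 1, 2 or 4 (adjusted p up to 0.0753). The summed intensity of these markers ranged from 38071 to 40808 in mucosa cells and from 78082 to 93545 in bulb cells. Fabp7, a lipid-binding protein of ensheathing glia, was lower at -2.94, S100b, a calcium-binding protein, at -1.49 and Ngfr, the low-affinity neurotrophin receptor, at -1.27, and Gldn, gliomedin, was higher at 1.87. With 1 array left out, 0 to 1 of the 18 were higher and 1 to 5 lower, with the fewest without replicate 1. The Ngfr call was lost without each array in turn (adjusted p up to 0.107), and the S100b and Gldn calls without replicate 1 or 2 (up to 0.0632 and 0.0779). The mucosa sum of these markers was lowest and the bulb sum highest in replicate 2. On that array C4a and the probes that stand for Masp1 and Serping1 had their smallest differences (-3.35, -1.88 and -1.03). C3 had its smallest in replicate 4 (-1.91). Other probes of Masp1 and Serping1 did not all share this order. The Masp1 probe nearest the start of the gene was also smallest in replicate 2 (-2.09). The farthest Masp1 probe was smallest in replicate 1 (-0.65), that of the MASP-3 transcript in replicate 4 (-2.37) and the second Serping1 probe in replicate 3 (-0.13). The part of these markers in the lower C3, C4a, Masp1 and Serping1 was not tested.

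Fibroblast markers leaned the other way from those of ensheathing glia, with 7 higher and 3 lower of 20. Their summed intensities ranged from 416451 to 456643 in mucosa cells and from 254622 to 305845 in bulb cells. These sums are linear, so bright genes weigh most. The collagen genes Col1a1 and Col1a2 had mean log2 intensities of 17.17 and 15.88 in mucosa cells, against 15.36 and 13.61 in bulb cells. Col1a2, a chain of type I collagen, was higher at 2.27 ± 0.45 (SD, n = 4; limma adjusted p = 0.00629). Fbln1, a matrix gene of fibroblasts, was lower at -4.15 ± 0.62 (adjusted p = 0.00197), a ratio of the size of that of C4a. Of 11 astrocyte markers 0 were higher and 3 lower, with sums from 6846 to 8712 in mucosa cells and from 12649 to 16266 in bulb cells. Of 9 endothelial markers 2 were higher and 1 lower, with sums from 6571 to 9424 in mucosa cells and from 3951 to 5737 in bulb cells. Eng, endoglin, the brightest of them in mucosa cells, had a mean log2 intensity of 12.00 there, against 9.94 in bulb cells. With 1 array left out, fibroblast markers had 4 to 6 higher and 1 to 2 lower, astrocyte markers 0 higher and 1 lower, and endothelial markers 0 to 1 higher and 0 lower. None of the 3 endothelial calls held without replicate 1 or without replicate 2.

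The rest of the complement system had few calls, all of them lower in mucosa cells. Of 48 other complement genes listed, 37 were tested, and 0 were higher and 3 lower by limma, a share of 8.11% against 6.62% of all names. Their median log2 ratio was -0.13, and 12 of the 37, or 32.4%, had an unadjusted p under 0.05, against 23.8% of all names.

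Cfb, factor B, the protease of the alternative branch that pairs with cut C3, was lower on all 4 arrays, with ratios of -1.55, -1.80, -2.09 and -2.48. Its mean was -1.98 ± 0.40 (SD, n = 4; limma adjusted p = 0.00824), and it was the 1 called gene of 12 tested in the list of initiation and the alternative branch. In the same list Fcnb, a ficolin, had 1.25 ± 1.05 without passing (adjusted p = 0.133). Cfb and C2 encode related proteases and had unlike values, -1.98 ± 0.40 and 0.59 ± 2.26.

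Among 14 tested regulators 2 were lower. Vtn, vitronectin, which blocks the terminal complex, had ratios of -4.41, -4.75, -2.37 and -2.88, a mean of -3.60 ± 1.16 (SD, n = 4; limma adjusted p = 0.00893). Its signal cleared background on 2 mucosa arrays and on all 4 bulb arrays, and the call was lost without replicate 1 (adjusted p = 0.0558) and by the deposited ratio (-5.37, adjusted p = 0.0564). Csmd1, a membrane protein that inhibits complement, was lower at -2.20 ± 0.28 (adjusted p = 0.00459). Crry, a membrane regulator of rodents, had -0.94 ± 0.75 at its brightest probe and 0.33 ± 0.27 and -0.11 ± 0.52 at other probes.

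Terminal components and receptors had 0 calls by limma. Of 7 terminal components 3 were tested, of which 1 had an unadjusted p under 0.05, and C6 had -0.90 ± 0.52 and C8g -0.62 ± 0.68 (SD, n = 4). Of 10 receptor genes 8 were tested, of which 0 had an unadjusted p under 0.05. C5ar1, the receptor of C5a, named C5r1 on the array, had 0.88 ± 1.35, and Itgam, a chain of complement receptor 3, is given above.

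**Figure D5:**
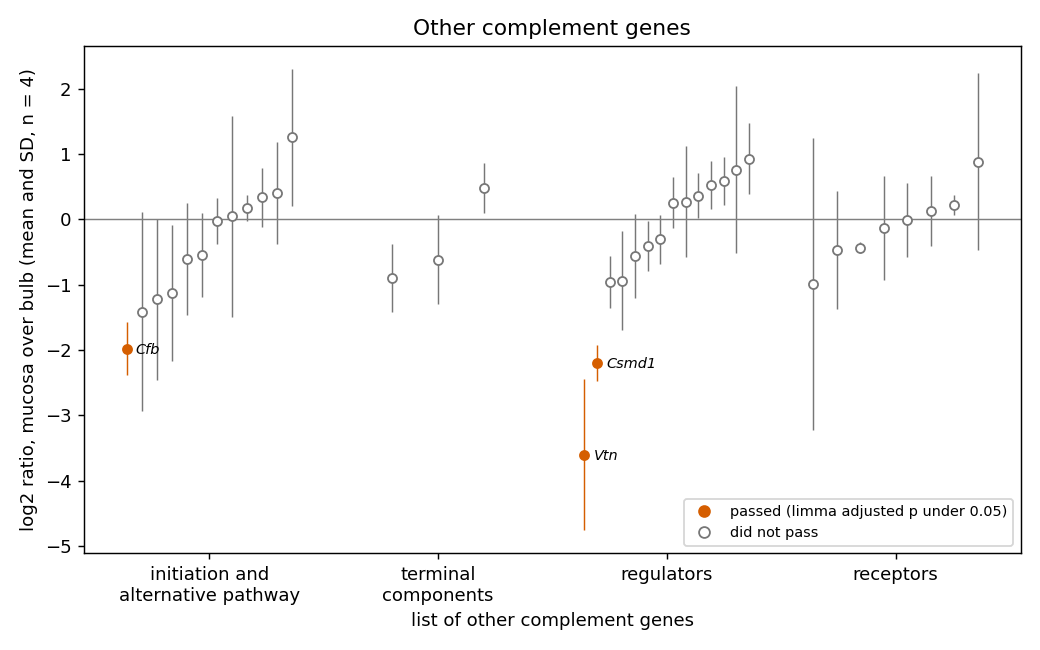
Mean log2 ratio of mucosa over bulb with its SD over 4 arrays (vertical axis) for 37 other complement genes in 4 lists (horizontal axis), with filled points for genes that passed. Cfb, Vtn and Csmd1 are the 3 that passed, at -1.98, -3.60 and -2.20, and the other 34 did not.

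Genes of inflammatory signals that are known to raise complement transcription were listed beside them. Of 19 interferon response genes 0 were higher and 2 lower, with a median of -0.37. The lower ones were Gbp2, a guanylate-binding protein, at -1.66 ± 0.16 and the chemokine gene Cxcl10 at -1.42 ± 0.45 (SD, n = 4; limma adjusted p = 0.00840 and 0.0256). The Cxcl10 call was lost without each of the 4 arrays in turn (adjusted p up to 0.102), and the Gbp2 call without replicate 2 (0.0523).

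Of 18 acute phase genes and targets of the factor NF-kB 1 was higher and 2 were lower, with a median of 0.090. A2m, the protease inhibitor alpha-2-macroglobulin and a relative of C3 and C4 in structure, was lower at -2.46 ± 0.43 (SD, n = 4; limma adjusted p = 0.00481). Cp, ceruloplasmin, had -1.71 ± 0.91 (adjusted p = 0.0472), and Serpina3n was higher at 1.18 ± 0.31 (adjusted p = 0.0309). The Cp and Serpina3n calls were lost without each of the 4 arrays in turn (adjusted p up to 0.125 and 0.138).

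Promoters of 6 of the 9 genes were matched by symbol in RefSeq sequences of the GRCr8 build, 300 bases around each gene's start. They were searched on both strands for TTCNNNGAA, the element of STAT factors, and for the element of interferon regulatory factors, GAAA, any 2 bases and GAAA. The patterns differ and were counted apart. C1qa held the STAT element, shown in capitals below, and C1qb, C1r, C3, C4a and Masp1 held neither. Of all 33469 promoters in the table, 8.87% held the first element and 3.92% the second. Letters of an element describe the sequence and are not a measured site.
C1qa, chr5:154419884-154420183 of GRCr8, minus strand: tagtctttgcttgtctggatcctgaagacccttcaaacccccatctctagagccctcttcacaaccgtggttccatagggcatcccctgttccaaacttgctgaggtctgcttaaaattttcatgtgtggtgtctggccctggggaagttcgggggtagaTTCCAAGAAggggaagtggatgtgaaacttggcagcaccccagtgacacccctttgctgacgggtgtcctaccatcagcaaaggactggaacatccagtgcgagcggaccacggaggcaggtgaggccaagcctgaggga

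The gene symbols nearest to 3 of the genes were found by Euclidean distance over the log2 ratios of the 4 arrays. Dbccr1, at a distance of 0.95, was the nearest to C3, followed by Masp1 at 1.12 and Leprel1 at 1.30. Nearest to C1qa were Cacybp, Camk2d and Lilrb3, at 0.24, 0.25 and 0.25. Nearest to C1qb were RGD1559578, Rap2ip and Pgk2, at 0.090, 0.13 and 0.14. Ratios near 0 have many neighbours, so short distances for C1qa and C1qb are common.

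Facts of the arrays that bear on these values are few. The median spot signal ranged from 567 to 842 in mucosa cells and from 342 to 382 in bulb cells, and it was higher in mucosa cells of replicates 1 and 2 than of replicates 3 and 4. Correlations of the ratios between pairs of arrays, across genes, ranged from 0.35 to 0.54. With arrays, precision is set by how many there are, here 4. The labels call the replicates biological and do not say how many animals each held.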

How the data were processed

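Polyadenylated RNA of cultured ensheathing cells was amplified by a global PCR before labelling, per the labels' protocols, a step that may alter relative abundance. Per the file headers, arrays were read with Agilent Feature Extraction 10.5.1.1 (the submitters' processing notes name 9.1), and probe coordinates are those of rn4. Spot and local background values were deposited as raw intensity on a linear scale. The scanner software made the deposited log10 ratios after background and dye correction, per the file headers, and the deposited value table equals them at each of 45018 features. Its column medians were 0, 0, 0 and 0.00042, and 0 of its columns lack a sample. All arrays were on 1 slide with 1 scan time.

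Signals were corrected with normexp (offset 50) and normalized by loess within arrays in limma 3.58.1 (R 4.3.3). Controls and outlier spots had weight 0, and outlier spots were left out. A probe was tested if well above background on 3 or more arrays in either channel, 36749 of 41012, and the brightest probe stood for each of 31897 names. Ratios were tested against 0 with lmFit and eBayes, Benjamini-Hochberg adjustment and a threshold of 0.05, and the fit was tested on simulated ratios. The pairing, given by the design text, is in the ratio. Intensities per channel were scaled by Aquantile for display. Intervals are 95% intervals of the fit. Of the list entries, 162 were matched by name, 4 by accession and 3 by synonym in a GRCr8 gene table, and 11 were not matched. The members, lists and tests were chosen with earlier results of these data known. The rule for named genes took the 9 members, called genes and the 2 largest others of each complement list, and up to 4 called genes of each marker list, with fixed myeloid and glia markers. Some further genes that it took are not reported here. Alternatives are given at the end. Figures were drawn with matplotlib 3.10.9.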

Additional observations from a re-analysis of the deposited data

Results flagged for a closer look

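In 9 of 93 groups of 4 values 1 array stood apart from the other 3 by more than Dixon's 95% critical value, and chance flags about 1 in 20 such groups. Among complement genes, the mucosa level of C1s in replicate 3 was 8.69 (other replicates 11.41 to 11.76), that of C2 in replicate 3 was 8.10 (9.95 to 10.32), that of C3 in replicate 4 was 10.68 (7.61 to 7.81), and that of the second Serping1 probe in replicate 3 was 7.85 (7.10 to 7.16), all as log2 intensity. The difference of C1q from C1r, C1s, C3 and C4a was 2.58 in replicate 3 (1.52 to 1.67 in the others). The log2 ratio of Crry was -2.06 in replicate 4 (-0.68 to -0.45), that of Thy1 2.83 in replicate 4 (4.14 to 4.31), that of Sox10 -1.04 in replicate 3 (-2.15 to -2.14) and that of Gbp2 -1.91 in replicate 3 (-1.61 to -1.57).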

How the results depend on the processing

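Of the complement genes, C4a was lower under all 16 alternatives, with log2 ratios from -4.42 to -3.75. With 1 array left out, the ratios ranged from -3.19 to -2.47 for C3, from -2.91 to -2.32 for Masp1 and from -2.01 to -1.63 for Serping1, and 1 to 4 of the 9 genes were called lower. C3 was not called with no replicate block, that is with the channels unpaired (-2.87, adjusted p = 0.0512), nor Serping1 with a trended robust variance (-1.76, 0.0527) or at its second probe (-0.75). The genes that did not pass stayed so under every alternative, and the signs that turned were those of C1r (-0.0012 at a normexp offset of 16, -0.031 by the deposited ratio and by the value table, -0.00025 with outlier spots kept), C1s (0.20 at its second probe), and, with 1 array left out, C1r (-0.12 to 0.27), C1s (-1.06 to 0.47), C2 (-0.20 to 1.53) and C1qa (-0.54 to 0.12). The difference of C1q from C1r, C1s, C3 and C4a ranged from 1.61 to 1.96 in 15 alternatives. Names called higher and lower numbered 1031 and 1079. They were 568 and 329 with the trended robust variance, 1739 and 1743 with no replicate block, 282 to 540 and 263 to 525 with 1 array left out, and 696 lower by the deposited ratio and by the value table. Median centring raised the share of calls that were higher to 59.6%, against 48.9%. Myeloid markers called higher fell to 1 with no background subtraction, the offset of 16, the deposited ratio, the value table, no filter and the trended robust variance, numbered 3 with median centring and with no replicate block, and were 1 to 2 with 1 array left out. Those called lower were 0 with the mean over probes and the trended robust variance, 2 with no replicate block, and 0 to 1 with 1 array left out. Other complement genes had 0 higher and 2 to 4 lower throughout. The cause of these changes was not tested, except that fewer arrays leave fewer degrees of freedom.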
